A study of Homo sapiens with 2 samples.

Results

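CD44 and 9 genes for integrin chains and tetraspanins of blood cells were compared between doxycycline and no doxycycline in K562, a human cell line derived from chronic myeloid leukaemia. The genes were those whose platform-annotated symbol was CD44, ITGA2B, ITGB3, ITGA4, ITGA5, ITGA6, ITGAV, ITGB1, CD9 or CD151, 10 of 18417 genes with a probe set of their own, and each had 1 such probe set. Both cultures carried a hairpin, switched on by doxycycline, that targets BMI1, the gene of a Polycomb group protein that helps to keep genes silent. One sample (1 array) came from cells given doxycycline for 96 h and the other (1 array) from cells given none, for which the labels state no time. No sample received doxycycline without the hairpin, so the drug and the hairpin cannot be told apart, and neither can any other difference between the 2 cultures. The 10 genes were selected on their known roles and with their log2 differences between these same 2 samples in view, so the values below describe these 2 samples and were not tested. Differences are log2 RMA values with doxycycline minus without, and having 1 array per group limits their precision.

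Integrins are cell surface receptors made of an alpha and a beta chain that tie the extracellular matrix or other cells to the actin cytoskeleton. ITGA2B pairs with ITGB3 to form the fibrinogen receptor of platelets, which marks the megakaryocytic lineage, whereas chains such as ITGB1, ITGA4 and ITGA5 occur on many blood cells. CD44 binds hyaluronan and is made in many splice forms, and CD9 and CD151 are tetraspanins, small membrane proteins that hold integrins in clusters. K562 cells have erythroid features and are known to take on megakaryocytic ones under phorbol ester.

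Upstream sequence is shown for CD44, the gene with the largest difference, and for ITGA2B, the megakaryocytic chain that differed little. Both runs hold the 250 bases before the RefSeq start on GRCh38.p14, at chr11:35138921-35139170 on the plus strand for CD44 and at chr17:44389650-44389899 on the minus strand for ITGA2B. Capitals mark the ETS core letters searched.
CD44: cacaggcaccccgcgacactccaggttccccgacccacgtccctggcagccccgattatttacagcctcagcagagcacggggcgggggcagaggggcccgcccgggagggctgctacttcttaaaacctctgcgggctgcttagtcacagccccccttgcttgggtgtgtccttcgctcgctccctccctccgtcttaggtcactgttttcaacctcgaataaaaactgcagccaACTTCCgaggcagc
ITGA2B: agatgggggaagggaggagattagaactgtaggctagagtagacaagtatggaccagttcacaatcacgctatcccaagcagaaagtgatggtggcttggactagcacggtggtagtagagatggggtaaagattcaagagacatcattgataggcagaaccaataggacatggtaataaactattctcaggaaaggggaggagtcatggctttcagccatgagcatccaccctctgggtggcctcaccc
The CD44 match begins 14 bases before the start, and the ITGA2B match begins at base 1 after the start, outside the run shown. The letters searched were ACTTCC or its reverse complement GGAAGT for ETS factors, GATAA or its reverse complement TTATC for GATA factors, and TGANTCA on either strand for AP-1, and no pair of these motifs shared a position in the runs shown. In windows of 300 bases around a start, which reach past the bases printed, RefSeq tables held 14 windows for 8 of the 10 genes. ITGB3 and CD151 had none. The ETS letters were in 6 of the 14 windows, against 22.8% of 35114 windows of all genes. The GATA letters were in 2 of 14, against 22.7% of all windows, and the AP-1 letters in 1 of 14, at ITGA5, against 7.71%. Windows of 1 gene can overlap, and a match describes letters only.

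The target of the hairpin was lower with doxycycline. BMI1 shares its probe set with a read-through transcript, and that probe set was at 10.00 with doxycycline against 10.84 without it, and so differed by -0.84. Of 18 measured erythroid markers, 16 with doxycycline and 17 without reached 6, the floor under which probe sets were taken as dim. Of all 18417 genes, 13251 with doxycycline and 13235 without did. AHSP, at 4.92 with doxycycline and 5.05 without, stayed under the floor, and HBB reached it only without doxycycline. GATA1, the erythroid and megakaryocytic master factor, was at 10.16 with doxycycline and 10.34 without, and the transferrin receptor gene TFRC was at 11.99 and 12.08.

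CD44 had the largest difference of the 10 genes and was bright in both samples. It stood at 9.86 with doxycycline against 9.20 without it, and so differed by 0.66 or 1.58-fold. Without doxycycline 82.6% of all 33297 probe sets were dimmer than CD44, and with it 88.6% were. CD44 was the only one of the 9 genes past the floor that was at least 1.5-fold higher (1 of 9), and 0.364% of all 13471 genes compared reached that size upwards. It ranked 32 among the 13471 genes from the highest difference down. Differences of genes at a level like that of CD44 had a robust SD of 0.13. Of the 2168 genes within 0.5 of its mean level, 3 differed by as much upwards, namely PHGDH, DDIT4 and CD44 itself, and 0 differed by as much downwards. PHGDH makes the first step of serine synthesis and DDIT4 inhibits mTORC1. The probe set covers the CD44 gene as 1 value, so splice forms of CD44 were not told apart.

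**Figure D1:**
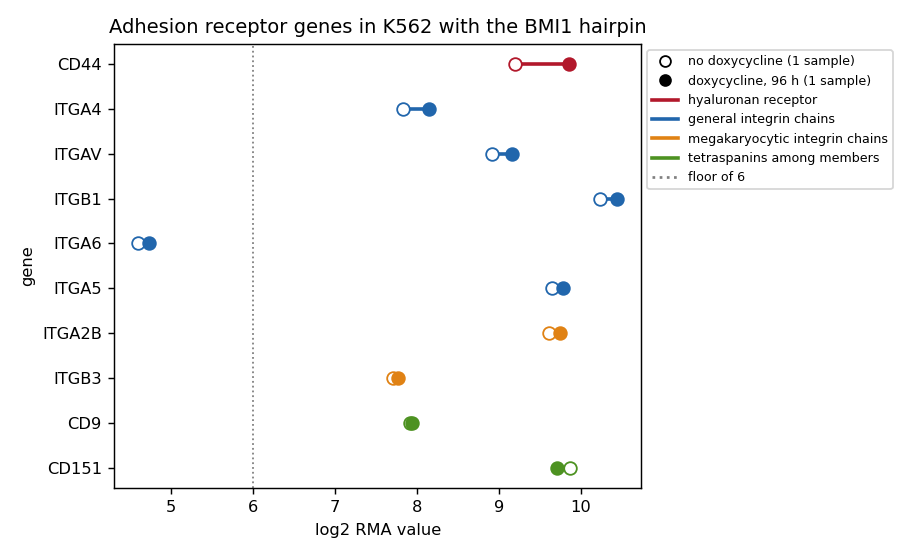
Log2 RMA value (horizontal axis) of each of the 10 genes (vertical axis) in the sample without doxycycline (open points) and with it (filled points), 1 sample each, with lines joining them coloured by gene group and a dotted line at the floor of 6. CD44 moves from 9.20 to 9.86, CD151 is the gene with the filled point on the left, and ITGA6 lies under the floor in both samples.

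The general integrin chains past the floor were higher with doxycycline (4 of 4, against 50.3% of all genes compared), each by less than CD44. ITGB1, the beta chain that pairs with many alpha chains, was the brightest of the 10 genes, at 10.45 with doxycycline against 10.23 without it, and so differed by 0.21. ITGA4, the alpha chain that binds VCAM1 and fibronectin, was at 8.15 and 7.83. Its difference of 0.32 was the largest of the integrin chains and made it 1.25-fold higher. ITGAV, the alpha chain of vitronectin receptors, was at 9.16 with doxycycline against 8.92 without it, and so differed by 0.24 or 1.18-fold. ITGA5, the alpha chain of the classical fibronectin receptor, was at 9.78 and 9.65, a difference of 0.13. ITGA6, an alpha chain of laminin receptors, was dim at 4.74 with doxycycline and 4.60 without. Its difference of 0.14 was smaller than the robust SD of 0.22 over the 1933 genes within 0.5 of its mean level, taken with no floor. The 4 general chains past the floor had a median difference of 0.23. In units of the robust SD of genes at their level, ITGA4 differed by 2.22, ITGAV by 1.71, ITGB1 by 1.66 and ITGA5 by 0.99.

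The megakaryocytic chains differed little. ITGA2B was bright, at 9.75 with doxycycline against 9.62 without it, and so differed by 0.13. ITGB3 was at 7.76 and 7.71, a difference of 0.05. Both were higher with doxycycline, with a median difference of 0.09. Each difference was no larger than the robust SD of genes at its level, 0.13 for ITGA2B and 0.16 for ITGB3. ITGA2B and the general chain ITGA5 had nearly the same level and the same rounded difference. The gap between the medians of the general and the megakaryocytic chains therefore rests on ITGA4, ITGAV and ITGB1, and with 1 sample per group it was not tested.

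Of the tetraspanins, CD9 stayed within the spread at its level, and CD151 was lower by slightly more than that at its own. CD9, a platelet and leukocyte tetraspanin, was at 7.94 with doxycycline against 7.92 without it, and so differed by 0.03. CD151, which binds laminin-receptor integrins, was the only gene of the 10 that was lower, at 9.71 with doxycycline against 9.86 without it, and so differed by -0.15 or 1.11-fold. Among genes of its level the robust SD was 0.13, and CD151 ranked 1893 among the 13471 genes from the lowest difference up.

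In all, 8 of the 9 genes past the floor were higher with doxycycline, where 50.3% of all genes compared were, 1 of the 9 was lower, where 48.8% of all genes were, and the median difference was 0.13 against 0.00177 over all genes. Without CD44, 7 of 8 were higher and the median stayed at 0.13. At least 1.2-fold higher were 2 of 9, CD44 and ITGA4, against 6.04% of all genes compared, and 0 of 9 were at least 1.2-fold lower, against 4.05%. By level without doxycycline the order was ITGB1, CD151, ITGA5, ITGA2B, CD44, ITGAV, CD9, ITGA4, ITGB3 and ITGA6. With doxycycline CD44 moved from place 5 to place 2 and CD151 from place 2 to place 5. Values of different probe sets depend on their probes as well as on RNA, so this order is that of signals and not of transcript amounts.

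**Figure D2:**
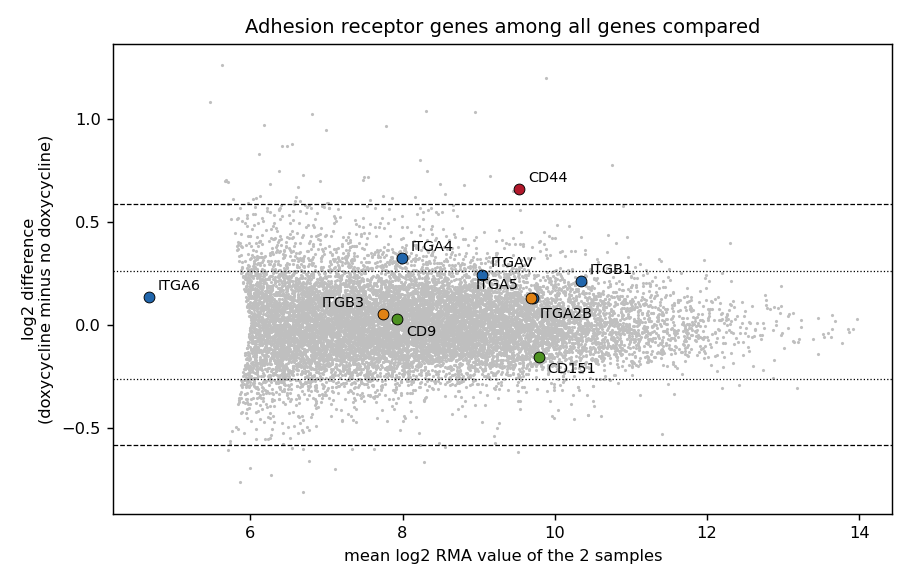
Log2 difference, doxycycline minus no doxycycline (vertical axis), against the mean log2 RMA value of both samples (horizontal axis) for the 10 genes (large points, coloured by gene group as in the plot of values) and all genes past the floor (grey), with dotted lines at 1.2-fold and dashed lines at 1.5-fold. CD44 lies above the upper dashed line at 0.66, ITGA4 above the dotted line at 0.32, and the other 8 between the dotted lines.

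Chains that form one receptor were set side by side. For the platelet fibrinogen receptor, the difference of ITGA2B exceeded that of ITGB3 by 0.08. For the vitronectin receptor, that of ITGAV exceeded that of ITGB3 by 0.19. ITGB1 at 0.21 lay between its partners, with ITGA4 above it by 0.11, ITGAV above it by 0.03, and ITGA5 and ITGA6 each at -0.08 relative to it. The differences of separate probe sets of 1 gene had an SD of 0.13, pooled over 554 genes. This SD describes the spread of single differences, and a gap between such differences varies by more. Apart from ITGAV with ITGB3, the gaps were smaller even than this SD. The gap of ITGAV with ITGB3 was larger than it, but an SD of gaps was not computed. That gap is therefore not set apart from the others, and it was not tested.

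Among the 10 selected genes, the order of the differences partly followed the length of the gene. CD44, ITGAV and ITGA4, which had the largest differences, span 93.2, 90.8 and 81.7 kb on GRCh38.p14. CD151, the gene that was lower, spans 5.88 kb, and ITGA2B and ITGA5 span 17.5 and 24.0 kb. ITGB3 with 59.9 kb and ITGA6 with 79.1 kb had small differences despite their length. Spearman's rho between difference and span was 0.80 over the 9 genes past the floor and 0.71 over 8 without CD44, on the same 2 arrays. The genes were selected with these differences in view, so both values only describe them and a link with length was not tested. Over 13457 genes compared it was 0.18. Of 2857 genes that span 50 to 150 kb, the median difference was 0.03, and 0.525% were at least 1.5-fold higher. With a trend on span removed, an alternative chosen after seeing the data, CD44 differed by 0.63, ITGA4 by 0.29 and ITGAV by 0.21.

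**Figure D3:**
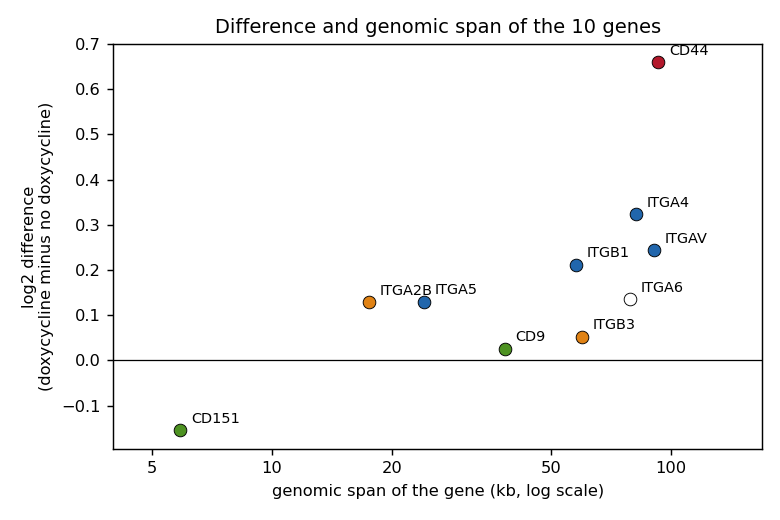
Log2 difference, doxycycline minus no doxycycline (vertical axis), against genomic span in kb on a log scale (horizontal axis) for the 10 genes, coloured by gene group as in the plot of values, with ITGA6 open because it lay under the floor. CD151 with 5.88 kb is the lowest at -0.15 and CD44 with 93.2 kb the highest at 0.66, while ITGB3 with 59.9 kb lies at 0.05.

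Other integrin chains were mostly dim, and most of those past the floor were lower. Of 19 listed, 18 were measured, 7 of these stayed under the floor, and 8 of the remaining 11 were lower, with a median difference of -0.18. Over all genes compared, 50.3% were higher and 48.8% lower, and 6.04% were at least 1.2-fold higher and 4.05% lower. These shares are the background of the counts in every list below. The brightest was ITGB5, a partner of ITGAV, at 8.27 with doxycycline and 8.25 without, and it was the only one of the 11 to reach 7. ITGB4, a laminin receptor chain of epithelia, was at 6.50 and 6.77, a difference of -0.27, the only one of the 11 at least 1.2-fold different. ITGA11 differed by -0.24, ITGAD by -0.21 and ITGAX by -0.20, all close to the floor, and ITGAX was counted although it reached 6 only without doxycycline. With no floor, the median of all 18 was -0.05. The leukocyte chain ITGB2 was at 6.67 with doxycycline and 6.76 without, and the platelet collagen receptor chain ITGA2 was at 4.74 in both samples. These signals were far dimmer than those of ITGB1 and ITGA2B, but signals of different probe sets do not compare transcript amounts.

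Other tetraspanins went both ways, with 8 of 21 past the floor higher, 11 lower and a median difference of -0.04. The brightest of them was the leukocyte tetraspanin gene CD53, at 11.38 with doxycycline and 11.16 without. TSPAN9, a platelet tetraspanin, differed by 0.32 and TSPAN31 by 0.31, whereas TSPAN14, a partner of the sheddase ADAM10, differed by -0.32. Of the proteins that bind tetraspanins, 5 of 6 past the floor were higher, with a median of 0.10. PTGFRN, an immunoglobulin-family partner of CD9, differed by 0.15, CD47 by 0.12, ADAM10 by 0.11 and CD46 by 0.10. None of these 6 reached 1.2-fold (0 of 6).

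The proteins that switch integrins on or off inside the cell differed little. Of 11 past the floor, 9 were lower, against 48.8% of all genes compared, 2 higher and 0 reached 1.2-fold, with a median of -0.04. FERMT3, the kindlin of blood cells, was the brightest and was at 11.56 in both samples. SLC3A2, an amino acid transporter chain that also binds beta integrin tails, differed by 0.23, and RASGRP2, the exchange factor for RAP1, by -0.22. RAPGEF1, another RAP1 exchange factor, differed by -0.13 and ITGB1BP1, an inhibitor that binds ITGB1, by -0.09.

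Focal adhesion adaptors and kinases split evenly, with 16 of 31 higher and a median of 0.000483. At least 1.2-fold higher were 2 of 31, near the 6.04% of all genes compared. ARHGEF6, an exchange factor for RAC1 and CDC42 that binds parvins, was at 8.74 with doxycycline against 8.20 without it, and so differed by 0.54. TES, a focal adhesion protein, was at 10.05 and 9.66, a difference of 0.39. BCAR1, a docking protein for SRC and CRK, differed by 0.20, ACTN4, an actin cross-linker and the brightest of the list, by 0.14, and TNS4 by -0.25 near the floor.

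Ligands of the integrins had a median difference of 0.03, with 16 of 27 higher. At least 1.2-fold higher were 3 of 27, against 6.04% of all genes compared. These were COL6A3, a collagen VI chain, at 7.99 with doxycycline and 7.47 without, L1CAM, at 6.19 and 5.85, and LAMB1, a laminin chain, at 8.40 and 8.12. FN1, the fibronectin gene and so the ligand of ITGA5 and ITGA4, differed by 0.24, and MFGE8, the brightest of the list, by -0.02. L1CAM reached the floor in the doxycycline sample alone. COL6A3 and FN1 are also fibroblast markers, a list in which 5 of 9 were higher, the median was 0.01 and the summed log2 level of 14 markers was 85.6 with doxycycline and 84.4 without. Among them COL1A2 was at 7.91 and 7.86, COL1A1 was at 7.73 and 7.84, and their part in the result was not tested.

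Around CD44, one gene of hyaluronan turnover differed nearly as much. CEMIP2, a membrane protein tied to hyaluronan breakdown, was at 8.66 with doxycycline against 8.09 without it, and so differed by 0.57, the only one of 11 in its list to reach 1.2-fold. The list had 6 higher, 5 lower and a median of 0.05. SRGN, the serglycin proteoglycan that CD44 binds, was the brightest, at 12.07 and 11.89. HAPLN3 and HABP4 differed by 0.20 and 0.19, and STAB1, a scavenger receptor, by -0.21. Of the cytoplasmic partners, splicing factors and proteases of CD44, 8 of 18 were higher and 9 lower, with a median of -0.01. ANK3, an ankyrin, differed by 0.37 and was the only one of the 18 past 1.2-fold, while ANK1, the red cell ankyrin, differed by -0.18. HNRNPA1 differed by 0.24, and the splicing factor SRSF1, the brightest, by -0.07. MET differed by 0.23, less than the robust SD of 0.25 at its level. It was at 6.24 with doxycycline and 6.01 without, close to the floor.

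Other adhesion receptors of blood cells were split, with 8 of 15 higher and a median of 0.00235. The sialomucin gene CD164, found on progenitors, had the highest level, at 10.99 with doxycycline and 10.79 without. CD99 differed by 0.18, CD24 by -0.20, and JAM3 by -0.30, at 5.79 with doxycycline and 6.09 without, so that it reached the floor only in the sample where it was higher.

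**Figure D4:**
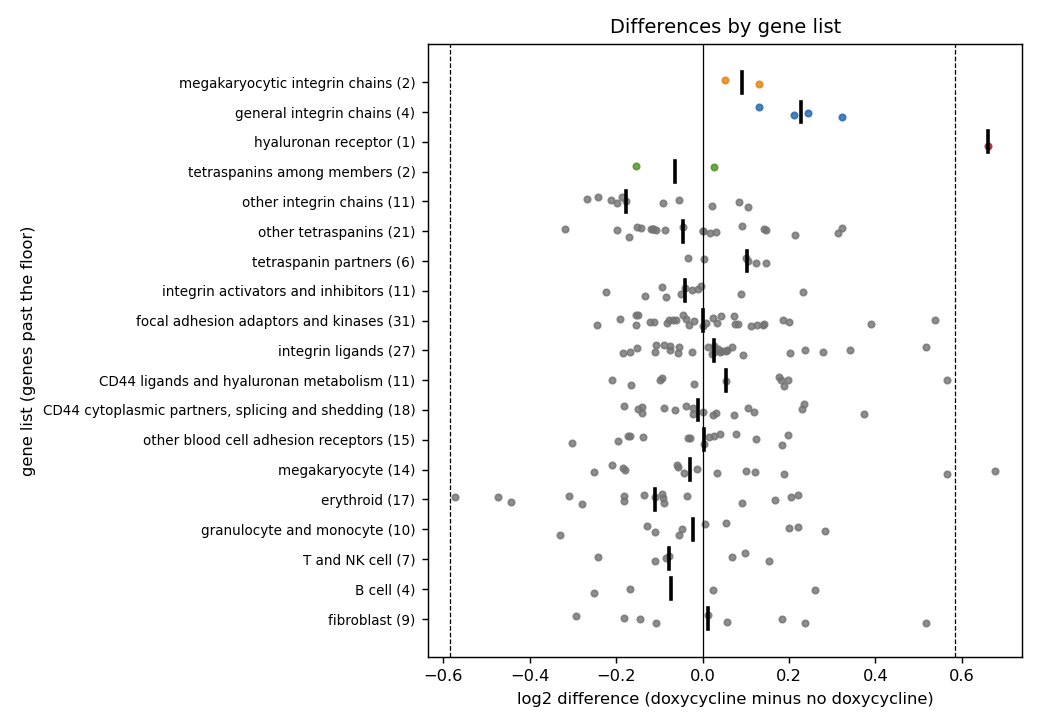
Log2 difference, doxycycline minus no doxycycline (horizontal axis), of every gene past the floor in each list (vertical axis, number of genes in brackets), with a black bar at the list's median and dashed lines at 1.5-fold. The general integrin chains lie at a median of 0.23 and the megakaryocytic chains at 0.09, the other integrin chains at -0.18, and erythroid markers at -0.11.

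Megakaryocyte markers outside the integrins did not share one direction. Of 23 measured, 14 passed the floor, 6 of them higher and 8 lower, with a median of -0.03, and the summed log2 level of the 23 was 157 in both samples. RAB27B, a granule secretion factor of platelets, was at 9.14 with doxycycline and 8.46 without. It was the only one of the 14 at least 1.5-fold higher, a size that 0.364% of all genes compared reached. FLI1, an ETS factor of the lineage, was at 6.68 and 6.11, a difference of 0.57. NFE2, needed for platelet release, differed by -0.25 and the platelet glycoprotein gene GP5 by -0.21. The platelet granule genes PF4, at 5.05 with doxycycline and 5.27 without, and PPBP, at 4.76 and 5.05, stayed under the floor. Erythroid markers were lower in 13 of 17, against 48.8% of all genes compared, with a median of -0.11. Of the 17, 5 were at least 1.2-fold lower, against 4.05%, among them HEMGN at -0.57, HBZ at -0.44 and HBE1 at -0.31. Both counts include HBB, which was at 5.95 and 6.42 and reached the floor only without doxycycline, where it was higher. Their summed log2 level over 18 genes was 158 with doxycycline and 161 without. The other 4 of the 17 were higher, namely ALAS2 by 0.22, SLC4A1 by 0.20, EPB42 by 0.17 and HBD by 0.09, so the markers did not share one direction. Whether the erythroid and the adhesion receptor values are linked was not tested. In bulk RNA, fewer cells of a type and less RNA per cell cannot be told apart.

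Markers of other blood lineages had medians near 0. Of 14 granulocyte and monocyte markers measured, 10 passed the floor with a median of -0.02, and the summed log2 level of the 14 was 94.3 with doxycycline and 94.5 without. ELANE, a neutrophil protease gene, differed by -0.33, and LYZ, the lysozyme gene, by 0.28. T and NK cell markers had a median of -0.08 over the 7 of 14 past the floor, but 0.00144 with no floor and 0.08 with a floor of 7, and summed levels of 87.2 and 87.4, with CD7 the brightest at 8.42 with doxycycline and 8.33 without. B cell markers had a median of -0.07 over the 4 of 8 past the floor and summed levels of 45.1 and 45.7, with BLK at 0.26 and CD79A at -0.25.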

How the data were processed

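Total RNA of 2 K562 cultures (0.3 µg each, RNA integrity number 10) was labelled by a whole-transcript protocol and run on Affymetrix arrays, 1 for each culture, as stated per the labels. Per the submitters' processing notes, the authors ran Affymetrix Expression Console 1.1.1 with RMA to obtain the deposited log2 values. RMA corrects background, quantile-normalizes and summarises probes by median polish, which compresses the differences of dim probe sets and would hide a change common to all genes. The log2 base was taken from RMA and from the values, which run from 1.61 to 14.6. The series' text names another array than the probe set numbers and platform annotation, and the latter were used. For the annotation's genome build, the sources used here give nothing.

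Of 33297 probe sets, 19460 had 1 symbol, 1754 several and 12083 none here, and 19429 of the 19460 were updated by Entrez ID to RefSeq on GRCh38.p14, which also gave gene spans and upstream sequence. A gene took its probe set with the highest mean. Genes whose higher value was under 6 were left out of counts, which kept 13471 of 18417. Genes named besides the 10 were, in each of 15 other lists, up to 4 with the largest difference, any at least 1.5-fold different and the brightest. Those named outside this rule (GATA1, TFRC, AHSP, ALAS2, SLC4A1, EPB42, HBD, ITGB2, ITGA2, PF4, PPBP, COL1A1, PHGDH and DDIT4) were chosen after their values were seen. The 10 genes, the lists and the motifs were chosen with earlier results of these data known. The robust SD was the median absolute deviation times 1.4826, over 20 equal-sized bins of genes by mean level. With 1 sample per group no p-value was computed. Fold counts, centring, quantile normalization and removal of a level trend were run on simulated data. Each simulated gene had 1 probe set, so the choice among probe sets was not checked. For centring and quantile normalization only equal medians were asked for, which these steps give by construction. The planted differences were of 1 log2 unit, larger than that of CD44, so the check of fold counts does not bear on smaller differences. The level bins, list medians, span trend and motif search were not checked in this way. Alternatives were averaging a gene's probe sets by mean or by median, centring, quantile normalization, removal of a loess trend on level (span 0.3), other floors and, added after seeing the data, removal of a trend on genomic span. Software was statsmodels 0.14.6, scipy 1.17.1, pandas 2.3.3, numpy 2.4.6 and matplotlib 3.10.9 under Python 3.11.15.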

Additional observations from a re-analysis of the deposited data

How the results depend on the processing

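Each of the 10 genes kept its sign with centring, quantile normalization and removal of a trend on level or on genomic span. Averaging probe sets by mean or median could not change these values, since each gene had 1 probe set of its own. Centring shifts all differences equally, and RMA had already quantile-normalized the values, so neither alternative was a strong check. CD44 ranged from 0.63 to 0.67, ITGA4 from 0.29 to 0.33, ITGAV from 0.21 to 0.25, ITGB1 from 0.19 to 0.22 and CD151 from -0.15 to -0.13, while CD9 ranged from 0.00705 to 0.04 and ITGB3 from 0.03, with the span trend removed, to 0.06. The median of the 10 genes was 0.21 at floor 8, which left 7 of them, and that of the megakaryocytic chains was then the value of ITGA2B alone, 0.13. The counts over all genes followed the floor. At least 1.2-fold higher were 1343 genes with no floor and 326 with a floor of 8, and at least 1.2-fold lower 1103 with no floor, 317 at floor 7 and 179 at floor 8. At least 1.5-fold higher were 77 with no floor, 26 at floor 7 and 16 at floor 8, and at least 1.5-fold lower 66 with no floor, 32 at floor 5, 9 at floor 7 and 4 at floor 8. The median of the other integrin chains was -0.09 with a floor of 5, -0.05 with none and 0.02 with a floor of 7 or 8, where 1 gene was left. The median of T and NK cell markers, -0.08 at the floor of 6, was 0.00144 with no floor and 0.00288, 0.08 and 0.10 at floors 5, 7 and 8. At floor 8 the median was -0.05 for integrin ligands, 0.18 for CD44 ligands and hyaluronan metabolism, 0.00885 for other tetraspanins, -0.13 for granulocyte and monocyte markers and -0.18 for erythroid markers. No paired analysis was possible because each group held 1 sample. Leaving out a sample was not possible for the same reason.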

Other observations

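Of 323 genes listed, 28 had no probe set of their own, and 6 of these were found only on probe sets annotated to several genes, whose signal cannot be assigned to 1 gene. The probe set shared by EZR, the ezrin that links CD44 to actin, and ROS1 was at 10.80 with doxycycline against 10.70 without it, and so differed by 0.10. The probe set shared by ITGA1, a collagen receptor chain, and PELO was at 6.38 and 6.53, a difference of -0.15. GP1BB, a chain of the platelet receptor for von Willebrand factor, shared 3 probe sets with a neighbour or a read-through, and these differed by -0.15, -0.16 and -0.18. The probe set shared by CD74 and ROS1 differed by 0.07. The remaining 22 of the 28 were not analysed here.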
